A study of Mus musculus with 8 samples.

Results

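C-type lectin receptors bind sugars on microbes, dead cells and serum glycoproteins, and dendritic cells (DC) use them to take up antigen and to sense pathogens. The 10 genes described here are Clec10a, Asgr1, Asgr2, Mrc1, Cd207, Clec9a, Clec4a2, Clec7a, Clec4n and Clec4e. They were taken as every array probe that carries 1 of these gene names, which gave 12 of the 41174 probes. Clec4a2 had 3 probes and each of the others 1. All 10 genes passed the filter on dim signals, among 15401 genes that did. A probe passed when both arrays of any 1 group showed it well above background, so a gene bright in a single group also passed.

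Total bone marrow of male C57BL/6Jax mice was grown in GM-CSF, a myeloid growth factor, at 40 ng/mL for 7 days, which yields DC together with other myeloid cells. The 4 groups were miR-155 knockout (KO) cells given lipopolysaccharide (LPS), KO unstimulated cells, wild-type (WT) cells given LPS, and WT unstimulated cells, with 2 one-colour arrays each. LPS, a bacterial cell wall component sensed through TLR4, was added to part of the floating cells at 100 ng/mL for 16 h. Activated, adherent, CD86-positive DC were then sorted from the stimulated cultures and CD86-negative DC from the unstimulated ones. Every LPS comparison therefore also compares 2 sort gates, and LPS and gate cannot be told apart. In such sorted bulk RNA, fewer cells of a type and less RNA per cell cannot be told apart either. The labels name the KO allele no further than miR-155 and give no mouse or culture for a replicate, so p-values measure the spread between these samples, which may be technical.

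Signals are given as the log2 processed signal minus the 75th percentile of the array, called the scaled log2 signal. A value of 0 equals the 75th percentile of that array, and an increase of 1 is a doubling of signal. Probes differ in how brightly they hybridise, so levels of different genes are not set against each other. Per array, 50.8% to 58.3% of spots stood well above background. The 10 DC markers checked, among them Itgax, Flt3 and Zbtb46, passed the background flag on every array. Cd86, the sort marker, was higher after LPS by 3.88 ± 0.55 (log2, SE) in KO and 3.85 ± 0.55 in WT (limma, adjusted p = 0.00411 in KO and 0.00468 in WT, n = 2 arrays per group). In a principal component analysis, component 1 (75.55% of variance) split the 4 LPS arrays from the 4 unstimulated ones and component 2 (9.57%) split the replicate numbers. No probe carried the name of miR-155, and its level was not analysed here.

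By their known roles the genes fall into 4 kinds. Clec10a (the galactose lectin MGL1), Asgr1 and Asgr2 (subunits of the hepatic asialoglycoprotein receptor) bind galactose or N-acetylgalactosamine. Mrc1 (the macrophage mannose receptor, CD206) and Cd207 (langerin, the receptor that forms Birbeck granules in Langerhans cells) bind mannose-type sugars and deliver cargo to endosomes. Clec9a (DNGR-1), Clec7a (Dectin-1) and Clec4a2 (DCIR) carry signalling tyrosine motifs in their own cytoplasmic tails. Clec9a binds actin exposed by dead cells and marks type 1 conventional DC (cDC1), Clec7a binds fungal beta-glucan and activates the kinase Syk, and Clec4a2 carries an inhibitory motif. Clec4n (Dectin-2) and Clec4e (Mincle) bind fungal mannans and mycobacterial glycolipid, and both signal through the Fc receptor gamma chain encoded by Fcer1g.

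The microRNA removed in the KO cells is shown with its seed, bases 2 to 8, in capitals, since these bases pair with target transcripts. Its sequence is that of RefSeq for GRCm38.p6, chromosome 16, plus strand.
mmu-miR-155-5p: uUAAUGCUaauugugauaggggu

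RefSeq promoters were at hand for 8 of the 10 genes, in 10 entries, and 3 of them are shown: Clec4e, the 1 gene that rose after LPS, and Asgr2 and Mrc1, which were among those that fell. Each run is the 250 bases before the annotated start, on the coding strand of GRCm38.p6 (chr6:123289872-123290121, minus strand, for Clec4e; chr11:70092394-70092643, plus strand, for Asgr2; chr2:14229164-14229413, plus strand, for Mrc1). Capitals mark matches, on either strand, to a core of the myeloid factor PU.1 (GAGGAA) or to a C/EBP motif (TTGCNNAA). An NF-kB motif (GGANTTTCC) was searched in the same way, and the 3 motifs were chosen after the sequences had been seen.
Clec4e: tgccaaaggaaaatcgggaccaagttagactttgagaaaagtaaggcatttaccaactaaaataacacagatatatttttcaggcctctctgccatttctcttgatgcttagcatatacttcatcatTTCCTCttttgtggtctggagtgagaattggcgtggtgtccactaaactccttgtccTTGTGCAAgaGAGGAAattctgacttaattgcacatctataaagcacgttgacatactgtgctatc
Asgr2: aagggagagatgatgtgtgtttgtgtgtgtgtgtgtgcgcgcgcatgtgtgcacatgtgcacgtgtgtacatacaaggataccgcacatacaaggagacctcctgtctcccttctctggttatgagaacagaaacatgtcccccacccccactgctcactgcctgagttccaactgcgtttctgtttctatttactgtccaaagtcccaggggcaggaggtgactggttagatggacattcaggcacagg
Mrc1: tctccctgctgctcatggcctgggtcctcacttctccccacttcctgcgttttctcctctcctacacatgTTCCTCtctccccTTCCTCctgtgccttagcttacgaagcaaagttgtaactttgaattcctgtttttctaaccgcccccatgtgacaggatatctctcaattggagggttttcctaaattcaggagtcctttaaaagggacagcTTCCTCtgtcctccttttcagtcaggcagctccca

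The Clec4e run held the C/EBP match TTGTGCAA between 66 and 59 bases before the start and PU.1 core matches at 123 to 118 and 56 to 51 bases before it. Mrc1 held 3 PU.1 core matches, and Asgr2 held none of the 3 motifs. Of the 8 genes, 5 (Asgr1, Mrc1, Cd207, Clec7a and Clec4e) had the PU.1 core in at least 1 entry, against 23.25% of 32851 promoters of the same length. The C/EBP motif was found in 2 (Asgr1 and Clec4e), against 9.564% of promoters, and the NF-kB motif in 0, against 1.065%. Genes were counted over all their entries, and Asgr1 and Clec7a had more than 1, whereas the 32851 promoters were counted singly. Asgr1 held its 2 motifs in separate entries. The shares are therefore not in like units, and the matches describe letters only.

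The LPS response is the difference between LPS and unstimulated arrays of 1 genotype. In KO cells, 1 of the 10 genes rose (Clec4e), 6 fell (Clec10a, Asgr2, Mrc1, Cd207, Clec9a and Clec4a2) and 3 did not pass the test (Asgr1, Clec7a and Clec4n). WT cells gave the same 1, 6 and 3 genes. With the normexp background correction, 5 of the 10 were called in KO and 6 in WT, and Clec9a changed sign in KO. Genes were called at an adjusted p under 0.05 in a limma fit over all genes. Of all genes tested, 20.8% were called in KO (10.4% higher and 10.5% lower) and 20.2% in WT (9.48% higher and 10.7% lower). Cd207 and Clec9a were not well above background on any LPS array and passed the filter only through the unstimulated groups where they are high, so they had to be lower after LPS. Among the other 8 genes, 1 rose and 4 fell in each genotype, with a median log2 change of −2.38 in KO and −2.48 in WT. The median log2 change over the 10 genes, with Cd207 and Clec9a set at the bounds given below for them, was −2.93 in KO and −2.69 in WT, against 0.05 and 0.0013 over all genes tested. With a filter that asked for signal above background on all 8 arrays, 7 of the receptors had values and 5 were called in each genotype. Of all 12351 genes under that filter, 2342 were called in KO and 2286 in WT. With the normexp correction, 575 genes were higher and 355 lower in KO, where the scaled signal gave 1595 and 1613. For WT, that correction gave 414 and 262, against 1460 and 1646.

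**Figure D1:**
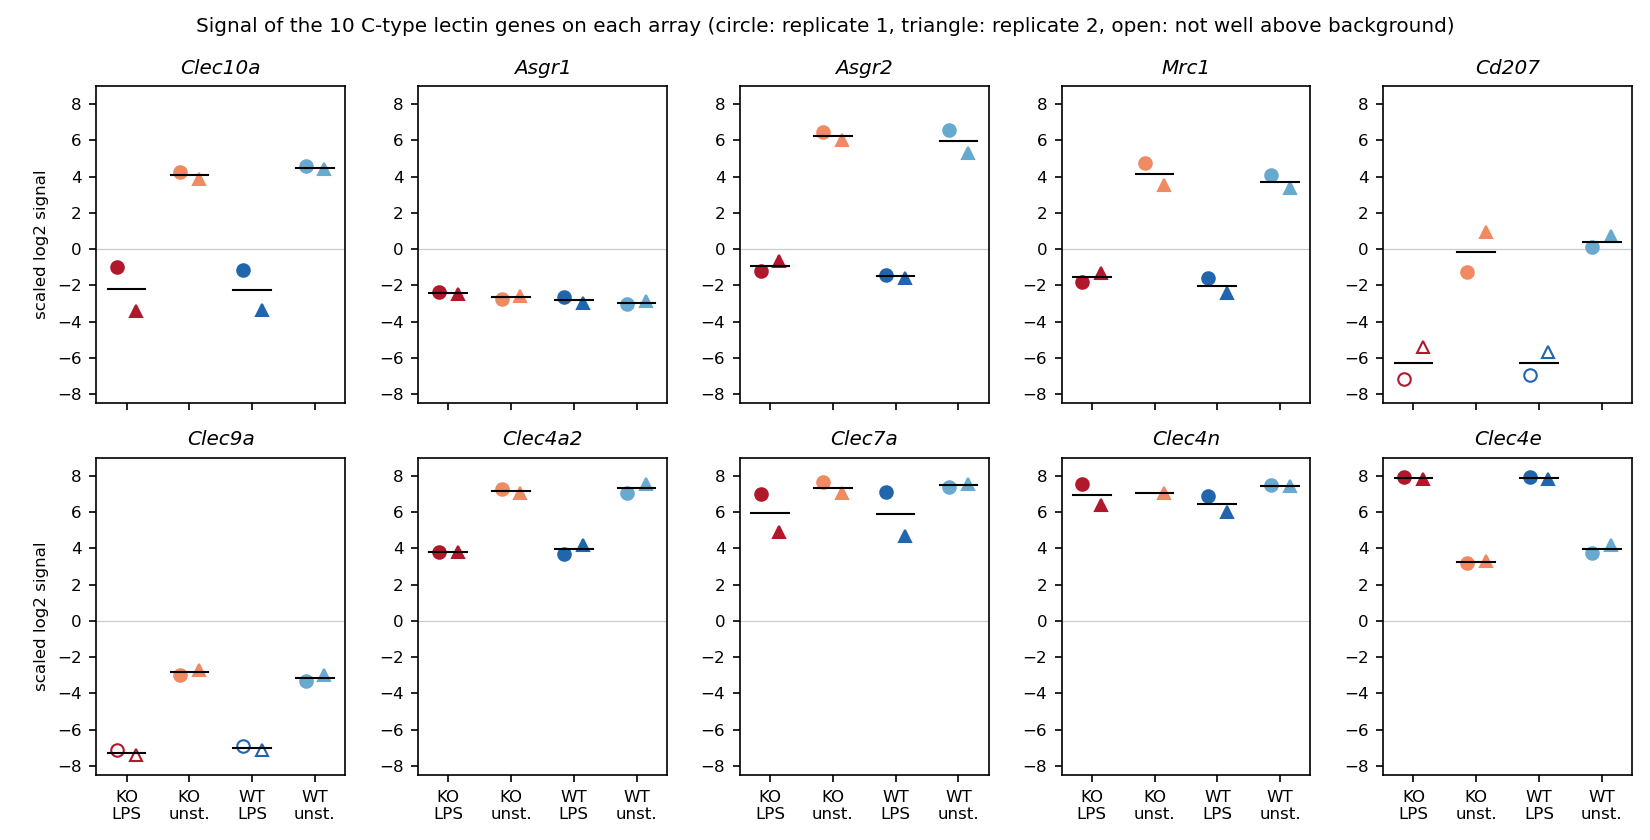
Scaled log2 signal (vertical axis) of the 10 genes on each array, by group, with a line at the group mean. Circles are replicate 1, triangles replicate 2 and open symbols spots not well above background. In both genotypes the LPS arrays lie below the unstimulated ones for the 6 genes that fell and above them for Clec4e.

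Asgr2 fell in both genotypes. Its probe (mm9 chromosome 11, bases 69919568 to 69919627, plus strand) read −1.23 and −0.66 scaled log2 units on the KO LPS arrays, against 6.45 and 6.04 on the KO unstimulated arrays. Its WT signals were −1.43 and −1.57 after LPS, against 6.59 and 5.31 unstimulated. Every LPS array lay below every unstimulated array, and all 8 spots were well above background. The change was −7.19 ± 0.46 (log2, SE; limma adjusted p = 0.000267), a 146-fold lower signal, in KO and −7.45 ± 0.46 (adjusted p = 0.000325), 175-fold lower, in WT.

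Clec10a (mm9 chromosome 11, 69984232 to 69984291, plus strand) fell as well, with more spread after LPS. It read −0.96 and −3.39 in KO LPS cells, against 4.25 and 3.89 in KO unstimulated cells. In WT it read −1.15 and −3.33 after LPS, against 4.59 and 4.41 unstimulated. The replicate 2 array was the lower LPS array in both genotypes, by 2.43 in KO and 2.18 in WT, and the groups still did not overlap. The fall was −6.24 ± 0.91 (log2, SE; limma adjusted p = 0.0048) in KO and −6.74 ± 0.91 (adjusted p = 0.00398) in WT. Within the slide that held both KO LPS arrays and 1 KO unstimulated array, the KO value was −6.42 with an adjusted p of 0.0868, so the call was lost there.

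Asgr1, whose product pairs with that of Asgr2 in the liver receptor, did not pass the test. Its probe (mm9 chromosome 11, 69871128 to 69871187, plus strand) read −2.34 and −2.47 in KO LPS cells, against −2.72 and −2.56 in KO unstimulated cells. The WT values were −2.65 and −2.98 after LPS, against −3.03 and −2.86 unstimulated. All 8 spots were well above background and read between −3.03 and −2.34; LPS arrays lay above unstimulated ones in KO, and the WT groups overlapped. The LPS difference was 0.23 (95% interval −0.37 to 0.84) in KO and 0.13 (−0.47 to 0.74) in WT, with limma adjusted p of 0.565 and 0.753. A fall of the size seen for Asgr2 could not have been read from this probe. Its unstimulated means were −2.64 in KO and −2.94 in WT. By comparison, the Clec9a spots after LPS, not well above background, averaged −7.26 in KO and −7.01 in WT.

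Both mannose-type receptors fell. Mrc1 (mm9 chromosome 2, 14253304 to 14253363, plus strand) read −1.79 and −1.29 in KO LPS cells, against 4.75 and 3.52 in KO unstimulated cells. In WT the values were −1.61 and −2.39 after LPS, against 4.09 and 3.37 unstimulated. Every LPS array lay below every unstimulated array, and all 8 spots were well above background. The limma change was −5.68 ± 0.51 (SE; adjusted p = 0.000827), 51.2-fold lower, in KO and −5.73 ± 0.51 (adjusted p = 0.000969), 53.1-fold lower, in WT.

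Cd207 (mm9 chromosome 6, 83621442 to 83621501, minus strand) was not well above background on any LPS array. It read −7.18 and −5.40 in KO LPS cells, against −1.28 and 0.96 in KO unstimulated cells. The WT values were −6.91 and −5.69 after LPS, against 0.11 and 0.72 unstimulated. The LPS values are signals near background, so the fold is a bound: the bright mean against, per LPS array, the higher of the lowest well-above-background signal and the probe's own. By this bound Cd207 was at least 34.0-fold lower in KO and at least 47.4-fold lower in WT. The limma adjusted p-values, 0.00451 in KO and 0.00357 in WT, belong to the fit on the near-background signals and not to the bound. They concern a direction that the filter had fixed. The KO call was lost within slide 2 (log2 change −5.01, adjusted p = 0.0826) and with normexp (−1.40, adjusted p = 0.298).

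Among the receptors with tyrosine motifs, Clec9a and Clec4a2 fell and Clec7a did not pass the test. Clec9a (mm9 chromosome 6, 129374197 to 129374256, plus strand) read −7.11 and −7.41 in KO LPS cells, against −2.96 and −2.70 in KO unstimulated cells. Readings in WT were −6.88 and −7.15 after LPS, against −3.31 and −2.99 unstimulated. No LPS spot was well above background, whereas all unstimulated spots were. By the same kind of bound Clec9a was at least 5.61-fold lower in KO and at least 4.02-fold lower in WT. The limma fit on the near-background signals, in a direction that the filter had fixed, gave adjusted p of 0.000247 and 0.00044. With normexp the limma log2 change was 0.58 in KO (adjusted p = 0.621) and −1.22 in WT (adjusted p = 0.615).

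Clec4a2 kept a bright signal in all groups. The probe used (mm9 chromosome 6, 123090676 to 123090735, plus strand) read 3.81 and 3.78 in KO LPS cells, against 7.24 and 7.07 in KO unstimulated cells. Signals in WT were 3.67 and 4.20 after LPS, against 7.05 and 7.57 unstimulated. The change was −3.36 ± 0.31 (log2, SE; limma adjusted p = 0.000871), 10.3-fold lower, in KO and −3.37 ± 0.31 (adjusted p = 0.000998), 10.4-fold lower, in WT.

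A second Clec4a2 probe gave nearly the same change from another stretch of the transcript. Its 60 bases are split over 11257 bases of genome (chr6:123078029-123089285, mm9, plus strand), as for a probe across a splice junction; they are shown because this probe is a separate reading of the gene.
Clec4a2 second probe: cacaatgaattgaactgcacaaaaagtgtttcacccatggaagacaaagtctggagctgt
It read 1.38 and 1.01 in KO LPS cells, against 4.85 and 4.46 in KO unstimulated cells, and 1.28 and 1.50 in WT LPS cells, against 4.65 and 4.90 in WT unstimulated cells. In the limma fit over probes it changed by −3.46 ± 0.29 in KO (adjusted p = 0.000604) and −3.38 ± 0.29 in WT (adjusted p = 0.000785). The third probe (mm9 chromosome 6, 123093620 to 123093679) did not pass the filter and was well above background only on the KO unstimulated replicate 1 array. The longest run of bases that a member's probe shared with a probe of another gene in the lists was 8 to 10 of 60 bases.

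Clec7a (mm9 chromosome 6, 129411739 to 129411798, minus strand) differed more between LPS replicates than between states. It read 6.98 and 4.92 in KO LPS cells, against 7.65 and 7.05 in KO unstimulated cells. In WT it read 7.13 and 4.67 after LPS, against 7.41 and 7.56 unstimulated. All LPS values lay below the unstimulated values of the same genotype, and in both genotypes replicate 2 was the low one. The difference was −1.39 ± 0.91 (log2, SE; limma adjusted p = 0.332) in KO and −1.58 ± 0.91 (adjusted p = 0.269) in WT. Leaving out 1 array in turn moved these to between −2.42 and −0.37 in KO and between −2.81 and −0.35 in WT. Within slide 1, where the WT LPS array is replicate 2, the WT value was −2.81 and passed the test (adjusted p = 0.0225).

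The 2 partners of the Fc receptor gamma chain differed in their response. Clec4e (mm9 chromosome 6, 123232878 to 123232937, minus strand) read 7.94 and 7.84 in KO LPS cells, against 3.18 and 3.29 in KO unstimulated cells. In WT it read 7.93 and 7.84 after LPS, against 3.73 and 4.20 unstimulated. The 4 LPS arrays of both genotypes read between 7.84 and 7.94, above every unstimulated array. Clec4e rose by 4.65 ± 0.26 (log2, SE; limma adjusted p = 0.000177), 25.1-fold, in KO and by 3.92 ± 0.26 (adjusted p = 0.000399), 15.1-fold, in WT.

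Clec4n was bright in all groups and did not pass the test. Its probe is split over the genome too (chr6:123194580-123196486, mm9, plus strand; 60 bases over 1907 bases of genome) and is shown because the response of this gene rests on it alone.
Clec4n probe: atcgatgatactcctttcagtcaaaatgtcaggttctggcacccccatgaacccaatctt
The 7 usable arrays read 7.52 and 6.38 in KO LPS cells, 7.04 in 1 KO unstimulated sample, 6.89 and 6.03 in WT LPS cells and 7.48 and 7.43 in WT unstimulated cells. The KO unstimulated replicate 1 spot was marked as outlying and left out of the fit. The KO unstimulated value lies between both KO LPS values, and both WT LPS values lie below the WT unstimulated ones. The LPS difference was −0.09 (95% interval −1.55 to 1.37) in KO and −0.996 (−2.19 to 0.19) in WT, with limma adjusted p of 0.935 and 0.208. Without KO LPS replicate 2 the KO value was 0.48.

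**Figure D2:**
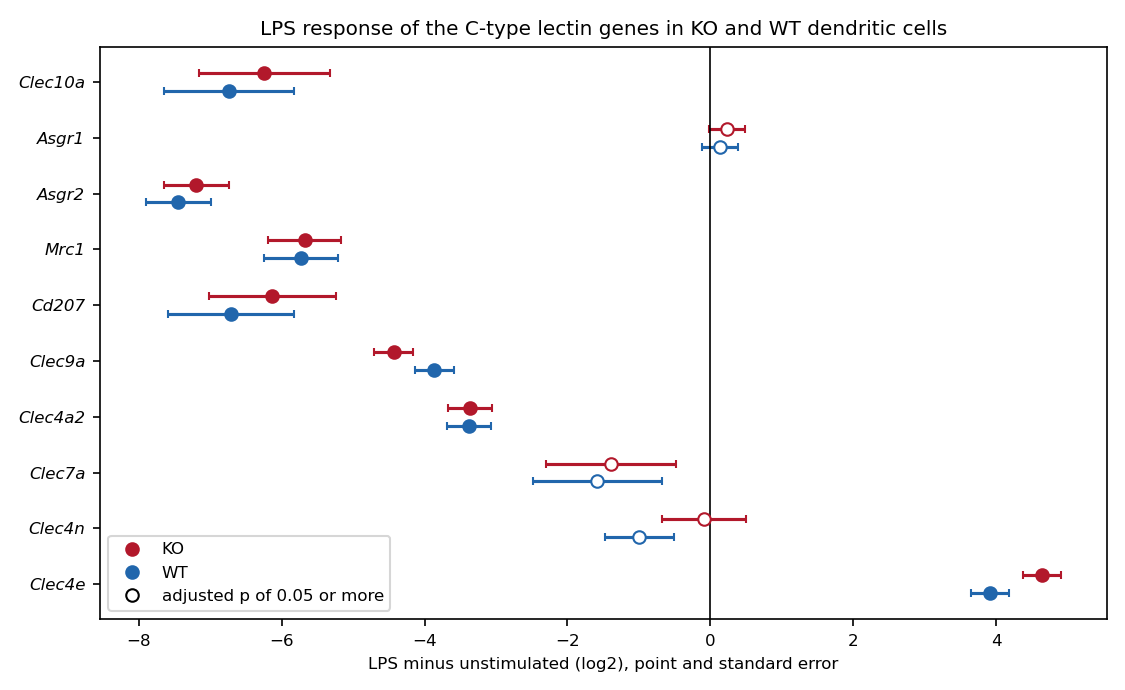
Log2 difference between LPS and unstimulated arrays (horizontal axis) with its standard error, for each of the 10 genes in KO (upper point of each pair) and WT (lower point). Open points did not pass the test. In both genotypes Clec4e lies alone at the right, Asgr1, Clec4n and Clec7a lie nearest to 0, and 6 genes lie at −3.36 or below, of which Cd207 and Clec9a use LPS signals near background.

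The question of whether miR-155 loss altered these receptors was asked in 4 ways. KO was set against WT after LPS, in unstimulated cells and as the average of these, and the LPS response of KO was set against that of WT. Of the 10 genes, 0 were called in each of the 4 comparisons, in the limma fit. Over all genes tested, 0.026% were called after LPS, 0.24% unstimulated, 0.143% for the average and 0.0455% for the difference between the responses. At an unadjusted p under 0.05, 1 gene (Clec4e, unstimulated) was found in these 40 tests. Over all genes tested, that limit was met by 187 of 15400 after LPS and 394 of 15401 unstimulated. It was met by 411 of 15400 for the average and 219 of 15400 for the difference between the responses. A single gene in 40 tests is therefore near the share over all genes. After LPS, Cd207 and Clec9a were near background in both genotypes, so their genotype differences there, and what uses them, compare background with background. Over the other 8 genes, differences ran from −0.14 to 0.56 after LPS, from −0.73 to 0.41 unstimulated and from −0.37 to 0.43 for the average. The difference between the responses ran from 0.01 to 0.91 over these 8.

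Clec4e was lower in KO unstimulated cells (mean 3.24 ± 0.07, SD, n = 2) than in WT unstimulated cells (3.97 ± 0.33), and the 2 groups did not overlap. The difference was −0.73 ± 0.26 (log2, SE; 95% interval −1.36 to −0.11), with a limma p of 0.0279 before and an adjusted p of 0.9999 after correction over all genes. After LPS the means were 7.89 ± 0.07 in KO and 7.89 ± 0.06 in WT. The LPS response was larger in KO by 0.73 ± 0.37, with an interval from −0.15 to 1.62 (adjusted p = 0.99999), and this difference was −0.12 with normexp.

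For the genes with the most replicate spread the intervals were wide. The lowest and highest bounds over these 8 genes were −2.11 and 2.24 after LPS and −2.60 and 2.02 unstimulated. For Clec4a2 the unstimulated interval ran from −0.88 to 0.58, and for Asgr1 from −0.30 to 0.91.

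**Figure D3:**
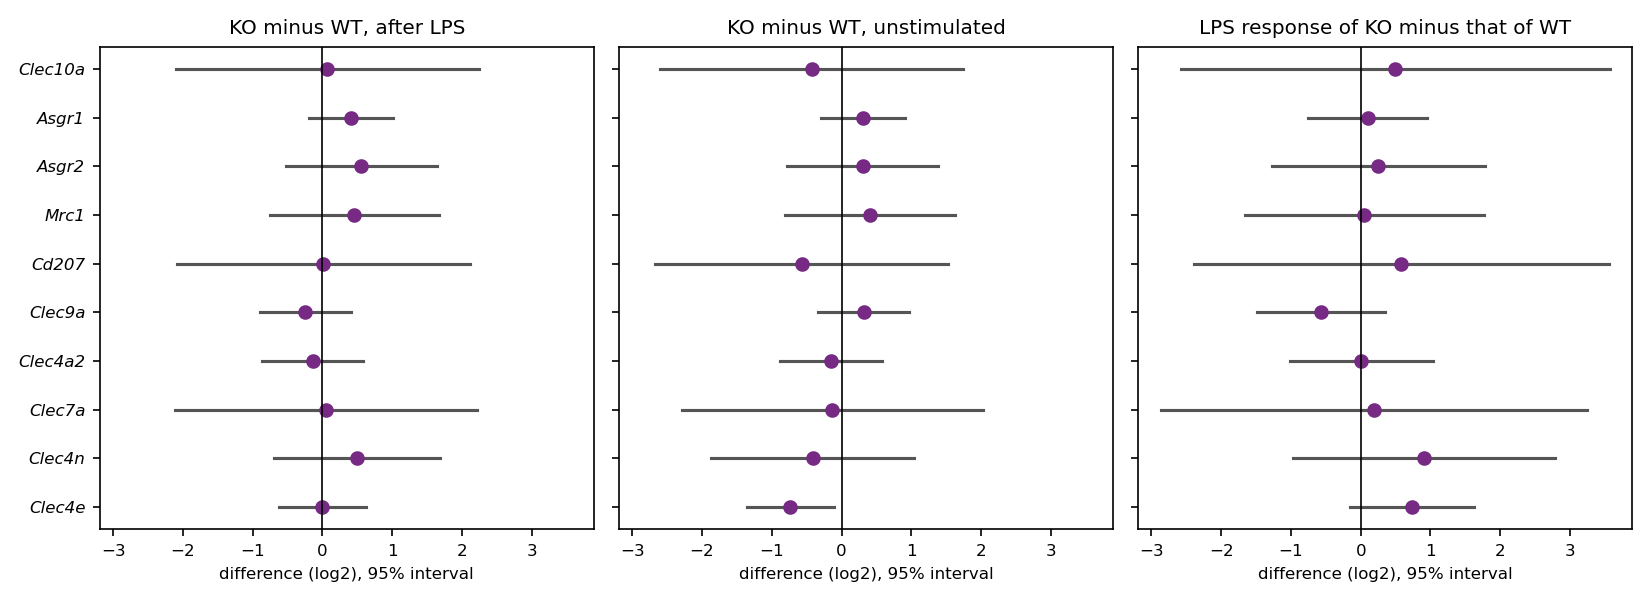
Log2 difference with its 95% interval for each of the 10 genes, after LPS (left), unstimulated (middle) and for the LPS response of KO minus that of WT (right). The interval of Clec4e in the unstimulated state, −1.36 to −0.11, is the 1 interval that leaves out 0, and the widest intervals belong to Clec10a, Cd207 and Clec7a. Cd207 and Clec9a lay near background after LPS in both genotypes.

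Of the 10 genes, 8 lie in 3 gene clusters of lectins on chromosomes 6 and 11, and neighbours differed in whether they passed the test. On chromosome 11 the order of protein-coding genes, from RefSeq for GRCm38.p6, is Asgr1, Asgr2, Mgl2 and Clec10a. Mgl2, which encodes the second mouse galactose lectin, fell by 4.20 ± 0.41 (log2, SE; limma adjusted p = 0.00105) in KO and by 3.78 ± 0.41 (adjusted p = 0.00172) in WT, so 3 neighbours fell and Asgr1 did not pass the test.

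In the chromosome 6 cluster from Clec4a3 to Clec4e, some genes fell and Clec4e rose. Clec4b1, next to Clec4a2, fell by 3.43 ± 0.31 in KO and by 3.51 ± 0.31 in WT (limma adjusted p = 0.000889 in KO and 0.000969 in WT). Clec4a3, at the far end, had −1.18 in KO and −0.86 in WT and did not pass the test. Clec4d, the partner of Mincle known as MCL, lies between Clec4n and Clec4e and had 1.96 ± 0.57 in KO (adjusted p = 0.0523) and 0.93 ± 0.57 in WT (adjusted p = 0.295). In the other chromosome 6 cluster, Clec1b and Clec1a fell in both genotypes beside Clec9a. Clec1b changed by −2.34 in KO and −2.55 in WT. Clec1a was not well above background on any LPS array and was at least 2.17-fold lower in KO and at least 2.28-fold lower in WT, where 1 of 2 unstimulated arrays measured it. Clec7a, at the end of this cluster, did not pass the test.

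**Figure D4:**
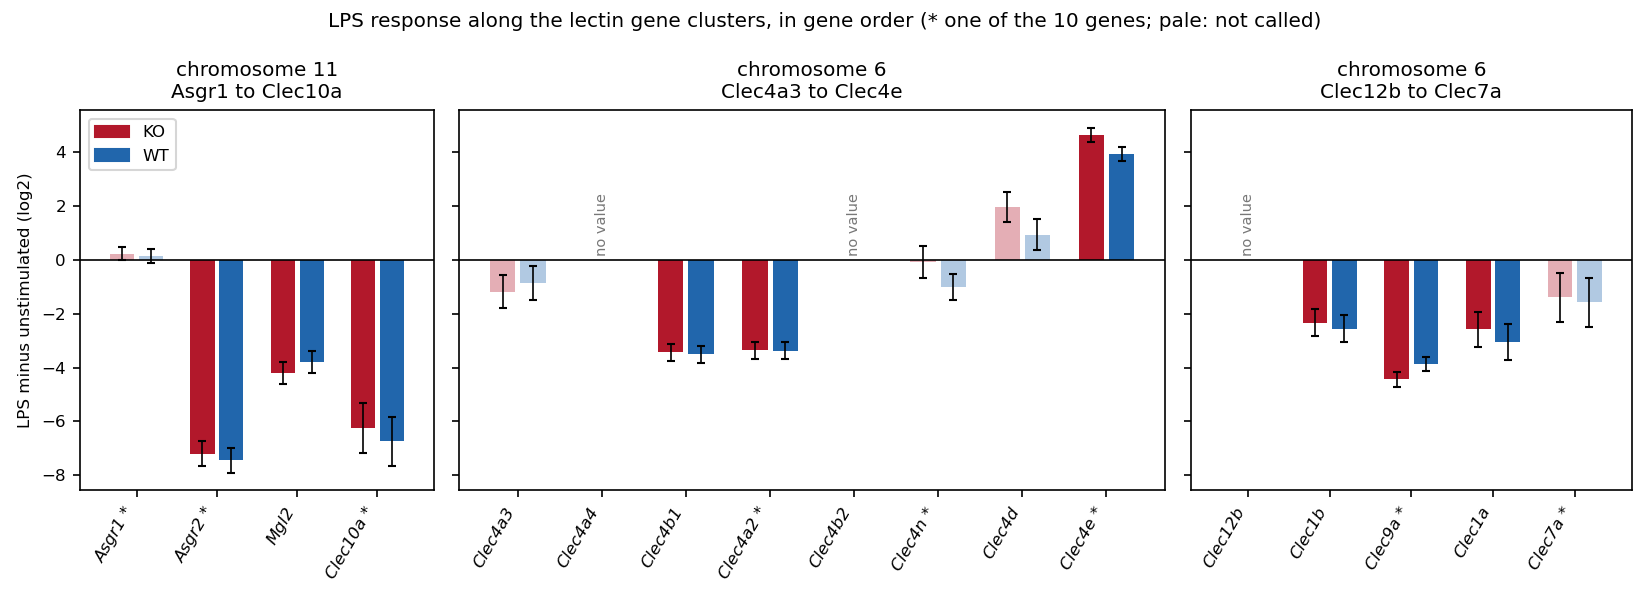
Log2 LPS response (vertical axis, bars with standard errors) in KO and WT for genes in their order along the 3 lectin clusters. Pale bars did not pass the test, and genes without bars had no value. Falls and the rise of Clec4e stand in the same chromosome 6 cluster, and Asgr1 stands beside Asgr2, which fell. Bars of Clec9a and Clec1a use LPS signals near background, so their lengths have no exact meaning.

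Beyond the 10 genes, 31 of 50 other C-type lectins passed the filter. In KO cells 3 rose and 14 fell after LPS, with a median of −0.97, and in WT cells 2 rose and 13 fell, with a median of −0.72. Of all genes, 20.8% were called in KO and 20.2% in WT. With genes known only by a bound set at it (6 in KO and 10 in WT), the medians were −0.97 and −0.59. Cd209b, Cd209e, Clec1a, Clec4g, Colec12 and Thbd were not above background on any LPS array. They had to be lower, and they count among those that fell in both genotypes. Cd209a, Cd209c and Cd209d were above background on 1 of 2 KO LPS arrays and on no WT LPS array. They too passed the filter only through the unstimulated groups, so their falls in both genotypes were not free in direction. When probes had to be above background on all 8 arrays, 19 of these lectins had values, with 4 higher and 5 lower in KO and 3 higher and 4 lower in WT. Of all 12351 genes under that filter, 2342 were called in KO and 2286 in WT. With normexp 2 were higher and 3 lower in KO, and 2 higher and 4 lower in WT. The highest risers were Cd69, an early activation antigen, with 4.63 in KO and 4.76 in WT, and Ly75, the endocytic receptor DEC-205, with 3.42 in KO and 2.73 in WT. Cd93 fell by 5.56 in KO and by 6.17 in WT. Cd209d, of the DC-SIGN family, was at least 17.6-fold lower in WT, and Cd209a was at least 11.4-fold lower there. Both fell in KO as well, Cd209d by 5.78 and Cd209a by 5.01, with 1 of 2 LPS arrays above background. Thbd, which encodes thrombomodulin, was at least 12.5-fold lower in KO and at least 16.8-fold lower in WT. Clec12a, an inhibitory receptor, did not pass the test in either genotype. In the 4 comparisons that involve genotype, 0 of the 31 were called.

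Of 35 genes of C-type lectin signalling, 33 passed the filter; Card9 had no probe of that name. In KO 5 rose and 4 fell after LPS, and in WT 5 rose and 5 fell, against 20.8% and 20.2% of all genes called in KO and WT. Syk, the kinase that the activating receptors recruit, rose by 1.22 ± 0.26 in both genotypes (limma adjusted p = 0.0181 in KO and 0.0188 in WT). Src, Cblb, Blnk and Traf6 also rose in both, with KO changes of 3.06, 2.91, 1.72 and 1.61. No WT unstimulated array had Cblb above background, so in WT it was at least 7.69-fold higher, a bound. Tyrobp, the adaptor DAP12, fell by 1.36 in KO and by 1.49 in WT. Nfatc1, Nfatc2 and Dok2 fell in both as well, with WT changes of −1.43, −1.91 and −1.24. For Nfatc2, 1 of 2 WT LPS arrays was above background. No KO LPS array was, so its KO fall is a bound, at least 5.71-fold. Nfatc2 thus passed the filter only through the unstimulated groups, and its direction was not free. Fcer1g, the adaptor of Clec4n and Clec4e, had 0.90 ± 0.29 in KO (adjusted p = 0.0686) and 0.79 ± 0.29 in WT (adjusted p = 0.0987).

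For each of the 10 genes the 2 genes with the most similar profile were found by the root mean square difference of mean-centred scaled log2 signal over the 8 arrays. Clec4a2 lay closest to its cluster neighbour Clec4b1 (0.125) and then to Nceh1 (0.228). Clec4e lay closest to the interferon-induced genes Ifih1 (0.229) and Ifi47 (0.249). Mrc1 lay closest to Chn2 (0.348) and Cldn1 (0.468), and Asgr2 to Cyp2s1 (0.463) and Dscam (0.487). Clec10a lay closest to the eicosanoid enzymes Alox5 (0.652) and Ptgs1 (0.692), and Cd207 to Fam64a (0.496) and E2f2 (0.593). Over its 7 arrays Clec4n lay closest to Clec11a (0.192) and Tbc1d19 (0.204). The nearest genes of Asgr1 were Rdh12 (0.079) and the transcript TC1692498 (0.083), those of Clec9a were BC096441 (0.149) and Man2a2 (0.181), and those of Clec7a were the transcript NAP030542-1 (0.279) and Mcf2l (0.308). These are distances over arrays that split by state, they include the near-background LPS signals of Cd207 and Clec9a, and they carry no test.

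Some markers of cell types that such cultures can hold moved with the LPS comparison too, against 20.8% of all genes called in KO and 20.2% in WT. Mean levels below are scaled log2 signals over a list and include dim spots. The counts include markers not well above background on any array of 1 state. These passed the filter only through the state where they are high, so their direction was fixed. Cadm1, Cd163, Mcpt8, Cpa3, Ctsg and Prg2 were such markers after LPS, and Camp, Dcn and Lum in unstimulated cells. Itgae, Cdh1, Cd200r3, Prss34 and F13a1 were above background on at most 1 of 2 LPS arrays of each genotype. They too passed the filter only through the unstimulated groups, so their falls were not free in direction. Of 9 cDC1 markers 8 were measured; 0 rose and 4 fell in KO, and 1 rose and 4 fell in WT. Their mean level lay between 0.12 and 0.17 in KO LPS cells, against 1.31 and 1.79 in KO unstimulated cells, and between 0.07 and 0.18 in WT LPS cells, against 1.42 and 1.48 in WT unstimulated cells. Xcr1, a chemokine receptor that marks cDC1, had 0.70 in KO and 0.56 in WT and did not pass the test. Of 5 Langerhans cell markers, all measured, 1 rose and 3 fell in each genotype. Cdh1 and Itgae, whose direction was not free, were among the 3 in each. The mean level of this list lay from −2.58 to −2.33 in KO LPS cells, against 0.11 to 0.14 in KO unstimulated cells. In WT it lay from −3.35 to −2.97 after LPS, against −0.26 to 0.27 unstimulated.

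The counts here also stand against 20.8% of all genes called in KO and 20.2% in WT. Of 15 macrophage markers 12 were measured, and 2 rose and 5 fell in KO as in WT. Their mean lay between 1.94 and 3.57 in KO LPS cells, against 3.30 to 3.45 in KO unstimulated cells, and between 2.42 and 2.52 in WT LPS cells, against 3.24 to 3.71 in WT unstimulated cells. Of 8 monocyte markers, all measured, 1 rose and 3 fell in each genotype, with F13a1, whose direction was not free, among the 3. Their mean lay between 1.12 and 1.27 in KO LPS cells, against 1.84 to 2.67 in KO unstimulated cells, and between 0.91 and 1.64 in WT LPS cells, against 2.02 to 3.39 in WT unstimulated cells. Of 8 basophil and mast cell markers measured, 2 rose and 4 fell in each genotype, with 2 of the 8 above background on both LPS arrays of each. The 4 that fell were Mcpt8, Cpa3, Prss34 and Cd200r3, so no fall in this list was free in direction. The mean of the 8 lay between −3.99 and −3.79 in KO LPS cells, against −3.49 to −2.82 in KO unstimulated cells. In WT it lay between −4.27 and −3.54 after LPS, against −3.92 to −2.26 unstimulated. Of 3 eosinophil markers measured 2 fell in each genotype, and in WT 1 of these was Prg2, with its direction fixed. Of 3 NK cell markers measured 2 fell in each genotype. The NK markers that fell were Klrb1c, not above background on any LPS array, and Klra8, above it on 1 WT LPS array only. Both passed the filter only through unstimulated groups, so neither fall was free in direction. Of 4 T cell markers measured, 1 rose and 2 fell in each genotype. Lck rose, and Cd2 and Lat fell, each with no array above background in its dimmer state, so these directions were fixed too. Of 6 neutrophil markers measured, 1 rose and 0 fell in KO and 1 rose and 1 fell in WT. Camp was the 1 that rose and Ctsg the 1 that fell, so these directions were fixed as well. Of 3 B cell markers 1 rose and 1 fell in KO and 0 rose and 1 fell in WT. Of 8 stromal markers 5 were measured, and 3 rose in KO and 4 in WT, with none lower in either. Dcn and Lum were among those that rose. No unstimulated array had them above background, so they had to be higher. The DC markers rose or did not pass the test, with 3 of 10 higher and 0 lower in each genotype. These 3 were Ccr7 (7.24 in KO and 6.65 in WT), Cd83 and Cd86. Cd86 is the sort marker, so its rise cannot be told apart from the gate. Itgax, Flt3 and Zbtb46 did not pass the test in either genotype. The part of these marker shifts in the falls of Clec9a, Cd207, Mrc1 and the other receptors was not tested.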

How the data were processed

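Cy3-labelled cRNA of 8 samples was hybridised to 8 one-colour Agilent arrays on 2 slides. Slide 1 held KO unstimulated replicate 2, WT LPS replicate 2 and both WT unstimulated arrays, and slide 2 held both KO LPS arrays, KO unstimulated replicate 1 and WT LPS replicate 1. Scans were extracted with Agilent Feature Extraction 10.5.1.1, per the file headers. The deposited intensity values are a background-subtracted processed signal, the mean signal and the local background, not scaled between arrays. Flags of 0 or 1 in another deposited column (other unit) mark which spots stood out from background and which were outliers. The series-wide file deposited by the authors gives log2 values, equal to the log2 processed signal plus a constant per array. Coordinates are those of the files (mm9).

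The log2 processed signal minus the 75th percentile of each array was analysed without control and outlying spots. A probe was kept when any 1 group had both arrays well above background (23739 of 41174), and the brightest probe stood for its gene (15401 genes). Group means were estimated by limma 3.58.1 under R 4.3.3 (data.table package, version 1.17.8), with 4 residual and 2.88 prior degrees of freedom. P-values were two-sided and adjusted by Benjamini-Hochberg over all genes of each of 6 comparisons. Precision is limited by having 2 arrays in a group. Sequences were read with Python 3.11.15 and figures drawn with matplotlib 3.10.9.

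Named genes were all 10 receptors; of the other lectins Mgl2, Cd209a, Clec4d, Clec4a3, Ly75 and Clec12a plus the 3 highest and 3 lowest changes among those called in both genotypes; of the signalling list Syk, Card9, Fcer1g, Tyrobp and those called in both; the 2 nearest genes of each receptor; and Cd86. Cluster neighbours and single markers were named as well. The receptors and the gene lists were chosen with earlier results of these data known. The labels do not say what a replicate number marks. Deviations of same-numbered arrays from their group means correlated between 0.013 and 0.692 over 6 pairs of groups, positive in 6 and over 0.1 in 5, which fell short of the criterion for pairing (over 0.1 in every pair), so no replicate block was used.

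Alternatives were quantile normalization, median centring, normexp with an offset of 50, the deposited log2 values, other filters on dim probes, the mean of a gene's probes, slide or replicate number as a block, each slide alone, and each array left out in turn. Keeping outlying spots was added after seeing the data.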

Additional observations from a re-analysis of the deposited data

How the results depend on the processing

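The number of receptors called in the LPS response, 7 in KO and 7 in WT, was 5 and 6 with normexp, 5 and 5 when probes had to be well above background on all 8 arrays, 5 in KO within slide 2 and 8 in WT within slide 1. It was 7 in both genotypes under the other alternatives, each array left out in turn and the replicate block among them. No other call on the 10 genes changed with the replicate block, which raised all genes called to 4187 in KO and 4154 in WT from 3208 and 3106. Over all genes, normexp gave 930 in KO and 676 in WT, 441 were called in KO within slide 2 and 1533 in WT within slide 1. Other lectins called numbered 17 in KO and 15 in WT, against 5 and 6 with normexp, 9 and 7 with the filter on all 8 arrays, and 5 in KO within slide 2. Signalling genes called numbered 9 in KO and 10 in WT, against 2 and 1 with normexp, 15 in both with the replicate block, 0 in KO within slide 2 and 3 in WT within slide 1.

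Reversed values were these. Clec9a had 0.58 in KO with normexp. On that setting the KO LPS replicate 2 array had a 5th percentile of −0.26, where the other 7 arrays had −3.28 to −2.81, so dim signals were raised on that array. The difference between the LPS responses of Clec4e was −0.12 with normexp. Asgr1 had −0.033 in WT within slide 1, and between −0.033 and 0.30 with 1 array left out. Clec4n had between −0.66 and 0.48 in KO with 1 array left out, and gave no KO value within slide 2, where its unstimulated spot was left out. In the 4 comparisons that involve genotype, 725 values of the 10 genes under the alternatives gave 0 calls (lowest adjusted p 0.175) and 86 changes of sign. Median centring moved the median LPS change of all genes by −0.19 in KO, and normexp moved it by 0.11. Spots that were not well above background limit Cd207 and Clec9a after LPS to bounds.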
